A study of Homo sapiens with 4 samples.

Results

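TFPI2 and MGP are a pair of genes for secreted inhibitors, and both gave more signal in SH-SY5Y cells, a human neuroblastoma line, after origamicin than after mock treatment. They are the probe sets annotated to these 2 symbols, out of 14884 genes with a named probe set, and the genes were selected on their measured difference between origamicin and mock on these same arrays. Their changes are therefore given as descriptions, with no test. Each gene had 1 named probe set, and both were among the 11883 genes kept after dim genes were left out.

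Origamicin, which the submitters describe as an inhibitor of protein disulfide isomerase, was given at 30 µM for 24 h to 2 cultures, and 2 mock cultures received the solvent methanol for 24 h. RNA was read on 4 Affymetrix Human Gene 2.0 ST arrays. The cells are a single established line with no genetic change between the groups. Replicates are labelled biological, but whether passages or days differed is not stated, so the spread and the p-values cover these arrays and may be technical.

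Tissue factor pathway inhibitor 2, the product of TFPI2, is a secreted protein of Kunitz inhibitor domains that blocks plasmin, trypsin and other serine proteases and is held in the extracellular matrix. Its promoter is silenced by DNA methylation in several cancers. Matrix Gla protein, the product of MGP, is a small secreted protein that vitamin K dependent carboxylation makes able to bind calcium. It holds back mineral deposition in arteries and cartilage, and it binds bone morphogenetic proteins (BMPs) and limits their signalling.

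The promoter of TFPI2 is shown because AP-1 and EGR transcription factors were also measured on these arrays. That of TFPI, its closest relative, stands beside it. No window was available for MGP, so the MGP promoter was not examined. Each run holds the 250 bases before the start of the gene on its own strand, from RefSeq on GRCh38.p14, at chr7:93890754-93891003 (minus strand) for TFPI2 and chr2:187554436-187554685 (minus strand) for TFPI. Capitals mark matches to a loose form of the AP-1 motif, TGANTCA, and to the EGR motif GCGNGGGCG, with N for any base.
TFPI2: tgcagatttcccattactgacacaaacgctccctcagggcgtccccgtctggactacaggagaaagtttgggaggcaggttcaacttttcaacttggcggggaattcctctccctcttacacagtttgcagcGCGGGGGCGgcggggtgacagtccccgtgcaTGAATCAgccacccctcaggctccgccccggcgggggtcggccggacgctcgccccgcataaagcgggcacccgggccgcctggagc
TFPI: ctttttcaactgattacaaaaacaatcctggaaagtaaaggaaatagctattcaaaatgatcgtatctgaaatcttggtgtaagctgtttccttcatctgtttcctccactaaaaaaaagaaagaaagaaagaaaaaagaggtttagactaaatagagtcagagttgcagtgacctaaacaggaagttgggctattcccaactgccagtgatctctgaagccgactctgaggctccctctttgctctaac

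The TFPI2 window held 20 CpG dinucleotides and 64.4% G and C, whereas the TFPI window held 2 CpG dinucleotides and 38.4%. The median over 35116 RefSeq windows of the same length was 11 CpG dinucleotides and 58% G and C. With positions counted back from the start of the gene, the AP-1 match lay at -87 to -81 and the EGR match at -118 to -110. The AP-1 match, TGAATCA, has A at the open base, so a stricter form asking for C or G there would not match it. The loose AP-1 form was found, on either strand, in 6.57% of all windows and the EGR motif in 8.41%. The EGR match overlapped 1 of 2 matches to the Sp motif GGGCGG, which 42.6% of windows held. A loose form of the antioxidant response motif, TGANNNNGC, had 3 matches, 1 of them over the AP-1 match, and was present in 35.2% of windows. None of the 3 has C after TGA, so a stricter form asking for TGAC would match none of them. No match was found for the TEAD motif GGAATG (11.9% of windows), the TATA motif TATAAA (10.7%) or the ER stress element (0.074%). The TFPI window held none of the 7 motifs. These matches describe letters in a window and say nothing of binding.

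TFPI2 had log2 expression values of 10.40 and 10.24 on the origamicin arrays, against 8.76 and 8.83 on the mock arrays. Every origamicin array lay above every mock array. The means were 10.32 ± 0.11 with origamicin and 8.79 ± 0.05 in mock (SD, n = 2 each), a log2 change of 1.52 ± 0.09 (SE), or 2.88-fold higher with origamicin. The 4 possible pairings of an origamicin with a mock array gave between 2.65-fold and 3.12-fold. The gap between arrays of a group was 0.16 with origamicin and 0.07 in mock on the log2 scale, so the change was 9.49 times the larger gap. By size of increase TFPI2 stood in place 3 of the 11883 genes tested.

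MGP had log2 expression values of 4.86 and 4.79 on the origamicin arrays, against 3.87 and 3.96 on the mock arrays. Again the groups did not overlap. The means were 4.83 ± 0.05 with origamicin and 3.92 ± 0.07 in mock (SD, n = 2 each), a log2 change of 0.91 ± 0.07 (SE), or 1.88-fold higher with origamicin. The pairings gave between 1.77-fold and 1.99-fold, and the change was 9.60 times the larger gap within a group, which was 0.09. MGP stood in place 14 by size of increase. Over all genes tested, the origamicin arrays lay wholly above the mock arrays for 22.7%, so a lack of overlap by itself is common with 2 arrays a group.

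**Figure D1:**
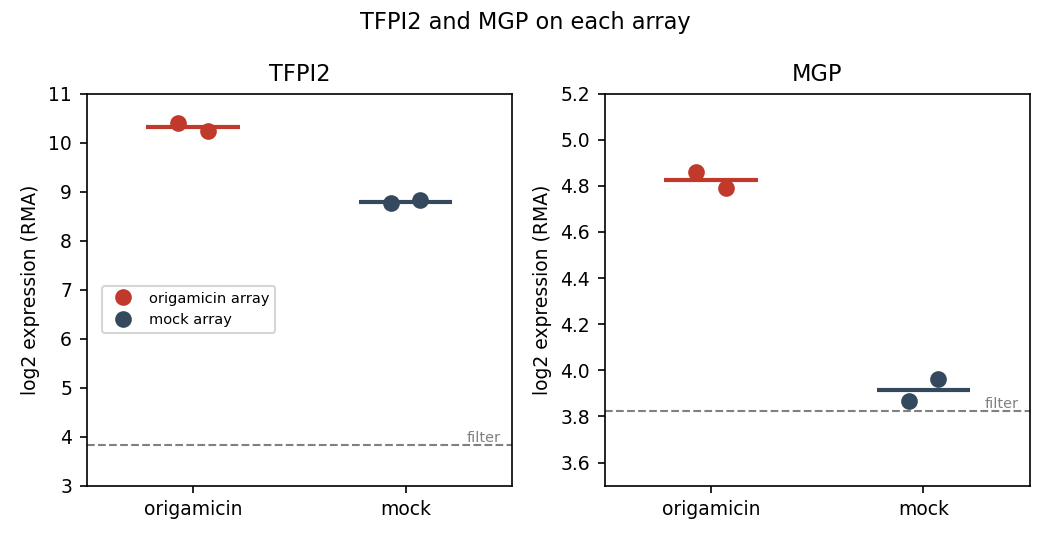
TFPI2 (left panel) and MGP (right panel) on each array, as deposited log2 expression, with origamicin left of mock, a point per array, a bar for the group mean and a dashed line at the level below which genes were left out as dim (3.82). TFPI2 sits far above that line in both groups, and the mock arrays of MGP sit just above it.

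The probe sets differed in how far they stood from the dim range. The filter lay at 3.82, the 40th percentile of all probe sets. Mock TFPI2 lay 4.97 log2 units above it, but mock MGP only 0.09 above it, which leaves the starting level of MGP close to array background. Array background can raise so low a level, and a fold computed from it can then understate the change in RNA. Both genes were also selected on their measured difference, which can overstate a change, so the fold of MGP is no lower bound. Genes whose mock level lay within 0.5 of the filter were noisy, with a median gap between arrays of a group of 0.18 both in origamicin and in mock, wider than the gaps of MGP (0.07 with origamicin and 0.09 in mock). When the spread was modelled as depending on level, the SE of the change in MGP was 0.14 in place of 0.07, and that of TFPI2 was 0.06 in place of 0.09. Of the 1315 genes whose mock level was within 0.5 of that of MGP, 4, with MGP itself among them, had an increase at least as large as that of MGP. Of the 1387 genes within 0.5 of the mock level of TFPI2, TFPI2 alone had an increase of that size.

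The log2 change in TFPI2 exceeded that in MGP by 0.61. Because the mock level of MGP is near background, how much of this lies in the measurement was not tested.

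**Figure D2:**
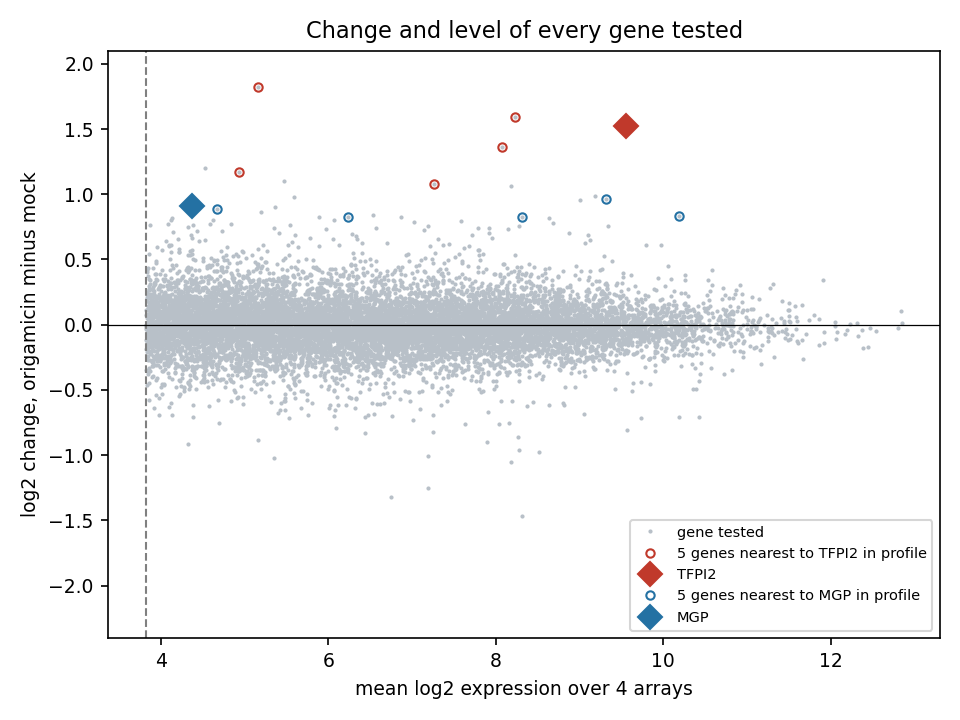
Log2 change (origamicin minus mock) against mean log2 expression over the 4 arrays for the 11883 genes tested, with TFPI2 and MGP as diamonds, the 5 genes nearest to each in profile as open circles and the filter level as a dashed line. MGP lies near the dim end of the level axis and TFPI2 further along it, both above most genes of their level.

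Genes whose values moved most like those of each member were found from the distance between the 4 array values after each gene was centred on its own mean. Nearest to TFPI2 was GDF15, a stress-induced cytokine, with a distance of 0.10 and values of 9.16 and 8.90 with origamicin, against 7.42 and 7.46 in mock. The neuropeptide NPY (distance 0.25, log2 change 1.37 ± 0.16 SE), the transcriptional cofactor ANKRD1 (0.44, 1.83 ± 0.12), the kinase PLK2 (0.51, 1.17 ± 0.18) and the transcription factor EGR1 (0.53, 1.08 ± 0.10) came next. The dimmer second probe set of EGR1 changed by 0.65. TFPI2 shared with GDF15 and NPY a higher value on origamicin replicate 1 than on replicate 2, while ANKRD1, PLK2 and EGR1 had the reverse order.

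Nearest to MGP was the kinase SGK1, with a distance of 0.04 and values of 5.13 and 5.10 with origamicin, against 4.20 and 4.25 in mock. It was followed by the microRNA gene MIR4521 (distance 0.08, log2 change 0.97 ± 0.07 SE), the transmembrane lectin LAYN (0.09, 0.83 ± 0.09), TMEM229A (0.10, 0.83 ± 0.07) and the complement component C7 (0.11, 0.83 ± 0.08). With 2 arrays a group this distance mostly ranks genes by the size of their change. TFPI2 and MGP were 0.62 apart. MGP came 10th from TFPI2, whereas TFPI2 came 488th from MGP.

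**Figure D3:**
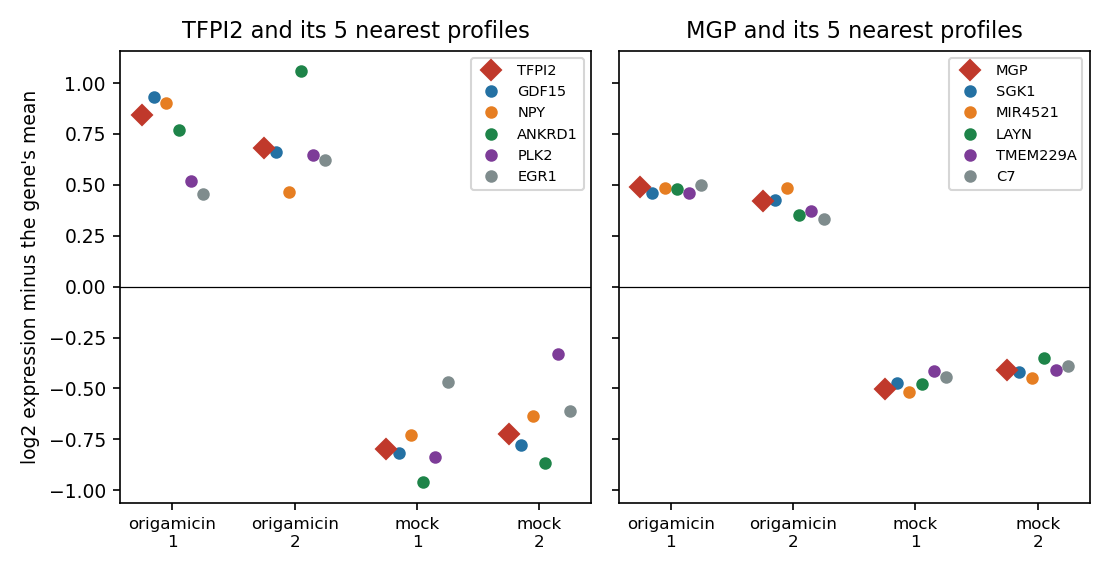
Log2 expression minus the gene's own mean on each array, origamicin left of mock, for TFPI2 (left panel, diamonds) and MGP (right panel, diamonds) with the 5 nearest profiles as circles. The circles around MGP lie within a narrower band than those around TFPI2, where EGR1 and PLK2 have smaller changes and ANKRD1 a larger one.

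The relatives and partners of the pair were then compared between the groups in a limma fit over all 11883 genes. No gene passed an adjusted p of 0.05 in that fit (0% of those tested), while 1950 genes (16.4%) had an unadjusted p under 0.05, 7.99% higher and 8.42% lower with origamicin. In a fit with an intensity trend 511 genes (4.3%) passed an adjusted p of 0.05, 2.14% of all genes higher and 2.16% lower. The median change over all genes was -0.01. Of 211 genes in 11 lists around the members, 100 were tested, and 16 of these were higher and 5 lower at an unadjusted p under 0.05. These 21 became 12 without mock replicate 2. Gene names were available for only part of each list, so the counts cover the genes tested.

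The other Kunitz-domain genes could be read only in part. TFPI, which blocks the start of coagulation by tissue factor, was dim, with log2 expression values of 3.42 and 3.36 with origamicin, against 3.32 and 3.36 in mock, and was not tested. The amyloid precursor gene APP (log2 change 0.11 ± 0.07 SE), its relative APLP2 (0.11 ± 0.07) and AMBP, the precursor of bikunin (0.07 ± 0.10), were the other 3 Kunitz-domain genes tested of 15 listed. None of the 3 had an unadjusted p under 0.05, and 1 did with an intensity trend. The 95% interval for the change in APP was -0.07 to 0.30.

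Of the proteases that TFPI2 and its relatives act on, few could be read. In the plasminogen system, 1 gene of 14 was tested. That gene, ANXA2, which encodes a cell surface receptor for plasminogen, had log2 expression values of 5.54 and 5.42 with origamicin, against 5.11 and 5.00 in mock. Its change was 0.43 ± 0.08 (SE; limma adjusted p = 0.174, and 0.111 with an intensity trend). Its partner S100A10 was dim, with means of 4.09 with origamicin and 3.51 in mock. PLG, the gene of plasminogen itself, was dim as well, at 3.05 with origamicin and 3.23 in mock. Among coagulation genes, 0 of 11 tested had an unadjusted p under 0.05 in either direction, and their median change was 0.01. With an intensity trend or without origamicin replicate 2, 1 was lower. The smallest p were those of the thrombin receptors F2RL3 (-0.25 ± 0.10) and F2R (-0.13 ± 0.06). Factor VII (F7), a protease that works with tissue factor, stood at 0.01 ± 0.11.

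Among metalloproteinases, the enzymes that cleave matrix proteins, 0 of 9 tested genes had an unadjusted p under 0.05 with all arrays. The membrane-bound enzymes MMP14 and MMP16 stood at 0.05 ± 0.08 and 0.02 ± 0.06, with 95% intervals of -0.15 to 0.26 and -0.15 to 0.19. Among their inhibitors, TIMP1, a secreted protein, had log2 expression values of 8.18 and 7.99 with origamicin, against 7.42 and 7.60 in mock. That is a change of 0.58 ± 0.11 (SE), 1.49-fold higher with origamicin, with a limma adjusted p of 0.173, and of 0.0225 with an intensity trend. RECK, a membrane-anchored inhibitor, was lower, at 7.80 and 7.73 with origamicin, against 7.95 and 8.13 in mock (-0.28 ± 0.09 SE; limma adjusted p = 0.266, and 0.103 with an intensity trend). Of the whole list, 14 tested, TIMP1 was the 1 higher gene at an unadjusted p under 0.05 (7.14%, against 7.99% of all genes). RECK was the 1 lower gene (7.14%, against 8.42%). With a replicate block, or without mock replicate 2 or either origamicin array, there were 0. The 1 higher gene became 2 without mock replicate 1 or origamicin replicate 1. TIMP2 (-0.06 ± 0.07), TIMP3 (-0.21 ± 0.15) and TIMP4 (0.13 ± 0.20) had an unadjusted p above 0.05. Of 8 other protease inhibitors tested, 1 was higher at an unadjusted p under 0.05 (12.5%, against 7.99% of all genes). That gene was the cystatin CST4 (0.42 ± 0.11), and WFDC1, a WAP-domain protein, followed at 0.27 ± 0.11. That count was 0 without mock replicate 1 and 2 without mock replicate 2.

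The other Gla proteins, which carry the same carboxylated residues as MGP, had small changes. Of the 10 tested of 14 listed, 7 were higher and 3 lower, none with an unadjusted p under 0.05 (1 higher without origamicin replicate 2), and the median change was 0.08. GAS6, a ligand of the TAM receptor kinases, stood at 0.08 ± 0.06 and PROS1, the anticoagulant protein S, at 0.09 ± 0.07. Coagulation factor X (F10) had the smallest p, at 0.12 ± 0.08. BGLAP, which encodes osteocalcin, was not analysed here. Of the vitamin K cycle, the carboxylase GGCX stood at 0.08 ± 0.08 and its inhibitor calumenin, CALU, at 0.09 ± 0.08. The arrays of the groups overlapped for both. The vitamin K reductases were not analysed here.

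**Figure D4:**
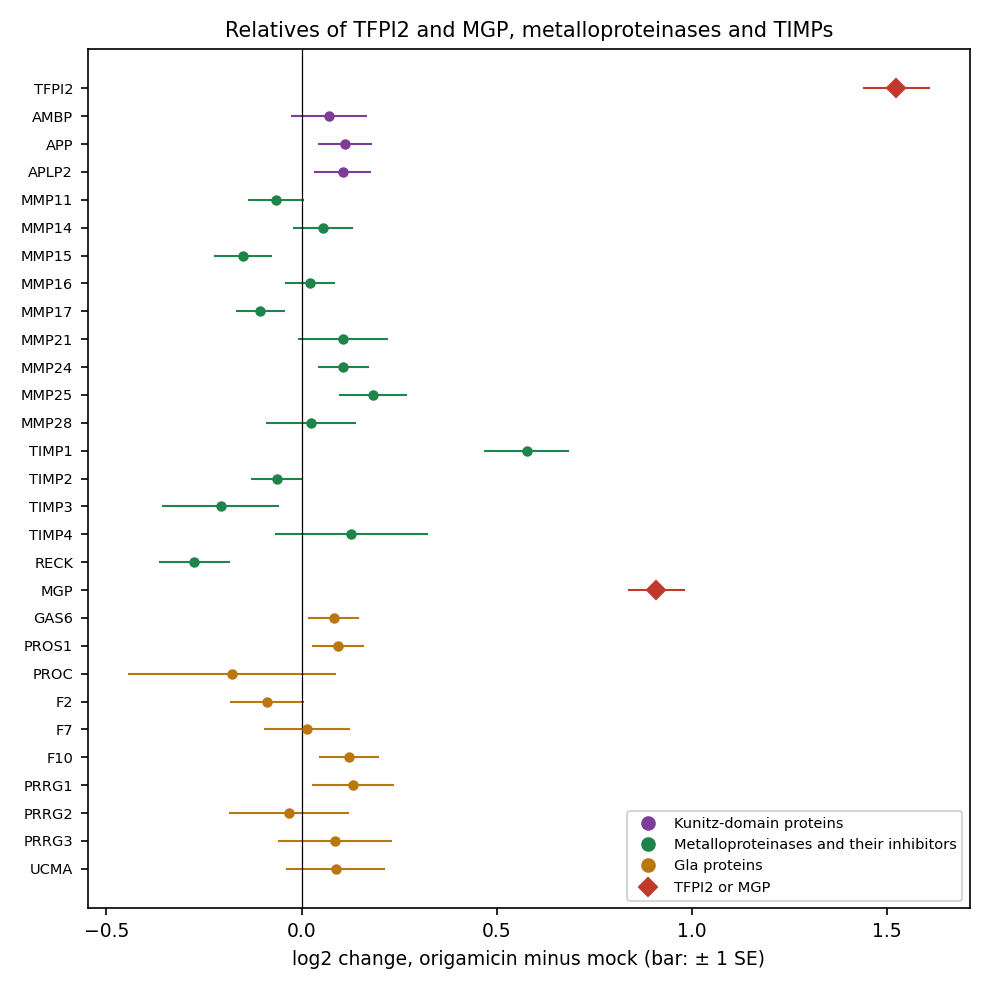
Log2 change (origamicin minus mock) with ± 1 SE from the limma fit for the tested Kunitz-domain genes, metalloproteinases with their inhibitors, and Gla proteins, coloured by list, with TFPI2 and MGP as diamonds. The changes of TFPI2 (1.52) and MGP (0.91) lie to the right of all their listed relatives, and TIMP1 (0.58) lies furthest right of the others.

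In the BMP pathway, in which MGP acts as a secreted antagonist, the co-receptor ENG and the antagonist GREM1 had the largest differences among the 29 genes tested, both higher with origamicin. BMPs are ligands that signal through receptor kinases to SMAD transcription factors. Of the 29, from 45 listed, 9 (31%, against 7.99% of all genes) were higher and 2 (6.9%, against 8.42%) were lower at an unadjusted p under 0.05. None passed an adjusted p of 0.05 in limma. Their median change was 0.16, against -0.01 over all genes. With the level-dependent spread, 3 passed, all higher: ENG, GREM1 and BAMBI. The 9 higher genes became 5 without mock replicate 1 and 4 without mock replicate 2. The 2 lower became 1 without mock replicate 1, without origamicin replicate 2, with a replicate block or with an intensity trend, and 0 without mock replicate 2.

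Among the secreted antagonists, GREM1, which encodes gremlin, had log2 expression values of 6.51 and 6.27 with origamicin, against 5.61 and 5.85 in mock. Its change was 0.66 ± 0.13 (SE), 1.58-fold higher (limma adjusted p = 0.174, and 0.0404 with an intensity trend). CRIM1, a membrane protein that binds BMPs, stood at 0.38 ± 0.10 and TWSG1, a BMP-binding protein that acts with chordin, at 0.22 ± 0.07. CHRDL1, a chordin-like antagonist, was lower, at 5.74 and 5.90 with origamicin, against 6.13 and 6.20 in mock (-0.35 ± 0.09). Noggin (NOG, 0.08 ± 0.08) and chordin (CHRD, 0.02 ± 0.07) had overlapping groups. Of 11 antagonists tested, 8 were higher and 3 lower, so the antagonists did not all move with MGP.

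All 3 receptor genes tested, of 9 listed, were higher at an unadjusted p under 0.05 (100%, against 7.99% of all genes). ENG, which encodes the co-receptor endoglin, had log2 expression values of 8.77 and 8.54 with origamicin, against 7.82 and 7.97 in mock, a change of 0.76 ± 0.11 (SE), 1.69-fold higher (limma adjusted p = 0.148, and 0.0103 with an intensity trend). The decoy receptor BAMBI changed by 0.40 ± 0.10 (limma adjusted p = 0.193, and 0.041 with an intensity trend), and the type I receptor ACVRL1 by 0.22 ± 0.06. The other listed receptors, BMPR1A, BMPR1B, BMPR2, ACVR1, ACVR2A and ACVR2B, were not analysed here. Of the ligands, BMP4 stood at 0.21 ± 0.07, on log2 expression values of 4.23 and 4.14 with origamicin, against 3.95 and 4.01 in mock. BMP7, by contrast, was lower at -0.19 ± 0.06, and BMP2 stood at 0.19 ± 0.11. SMAD9, a SMAD that BMP receptors phosphorylate, stood at 0.24 ± 0.08. SMAD6, an inhibitory SMAD that BMP signalling induces, stood at 0.44 ± 0.10, with values of 5.78 and 5.85 with origamicin, against 5.49 and 5.27 in mock.

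**Figure D5:**
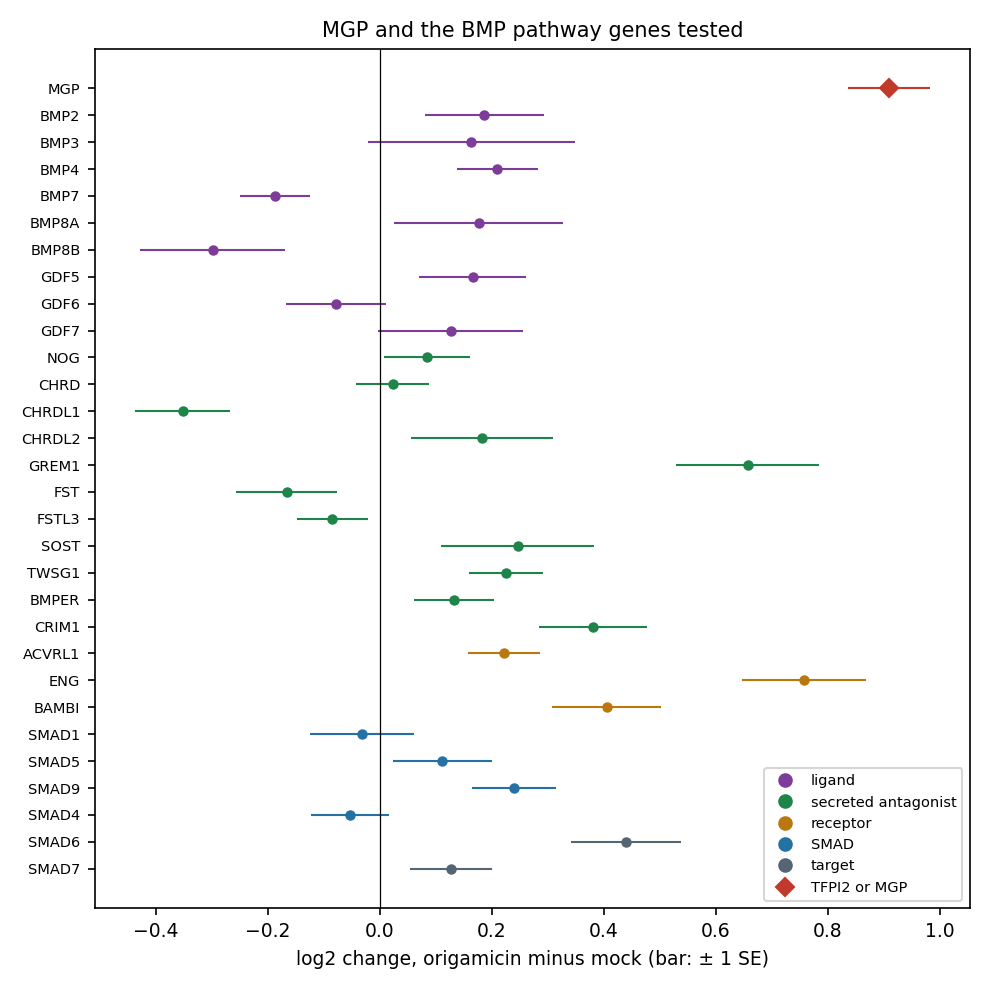
Log2 change (origamicin minus mock) with ± 1 SE from the limma fit for MGP (diamond) and the 29 BMP pathway genes tested, coloured by role. ENG (0.76) and GREM1 (0.66) lie nearest to MGP (0.91), and CHRDL1 (-0.35) lies furthest to the left.

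Of the mineralization genes other than MGP, 4 were tested, with a median change of -0.04. SP7, a transcription factor of bone-forming cells, stood at 0.29 ± 0.09 and had an unadjusted p under 0.05. That 1 higher gene became 0 with an intensity trend and without mock replicate 1, mock replicate 2 or origamicin replicate 2. SPP1, the secreted inhibitor osteopontin, stood at -0.04 ± 0.16, the inhibitor AHSG (fetuin-A) at -0.22 ± 0.13, and RUNX2, a master factor of bone formation, at -0.03 ± 0.08. ENPP1, which makes the mineralization inhibitor pyrophosphate, was dim, at 2.15 with origamicin and 2.06 in mock.

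The AP-1 and EGR factors went both ways. Of 11 tested, 3 were higher (27.3%, against 7.99% of all genes) and 1 lower (9.09%, against 8.42%) at an unadjusted p under 0.05. Their median change was -0.04. The 3 higher became 2 with a replicate block, no filter, equal array medians, quantile normalization, averaged probe sets or an intensity trend. That count also fell when some single arrays were left out. EGR1 had log2 expression values of 7.71 and 7.88 with origamicin, against 6.79 and 6.65 in mock, and passed with an intensity trend (adjusted p = 0.00243, against 0.0953 in limma). The AP-1 subunit FOSL1 stood at 5.90 and 5.94 with origamicin, against 5.19 and 5.13 in mock. Its change was 0.76 ± 0.07 (limma adjusted p = 0.0953, and 0.0163 with an intensity trend). JUN, the subunit that pairs with FOS proteins, was lower, at 7.16 and 7.10 with origamicin, against 7.75 and 7.67 in mock. JUN thus changed by -0.58 ± 0.07 (limma adjusted p = 0.107, and 0.00972 with an intensity trend). FOS stood at 0.21 ± 0.07, and its dimmer second probe set at -0.10. EGR1 and FOSL1 were among the genes known to change before the list was drawn up, so the list is no independent evidence.

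TFPI2 and MGP are both expressed by mesenchymal cells, so markers of cell types were read beside them. These marker lists were chosen with earlier results of these data known, so they are no independent evidence. The labelled cell type was borne out by noradrenergic neuroblastoma markers such as DBH, at 12.38 and 12.33 with origamicin, against 12.53 and 12.53 in mock. Over 9 noradrenergic markers tested of 10, the list mean was 9.51 to 9.53 with origamicin and 9.80 to 9.86 in mock. At an unadjusted p under 0.05, 6 were lower (66.7%, against 8.42% of all genes). These 6 became 3 without mock replicate 2, and 4 without any 1 of the other arrays, with a replicate block or with no filter. Mesenchymal neuroblastoma markers averaged 6.77 to 6.81 with origamicin and 6.55 on both mock arrays, over 9 tested of 13. At an unadjusted p under 0.05, 4 of these were higher (44.4%, against 7.99% of all genes) and 0 lower: VIM, FN1, SNAI2 and FOSL1. The count of higher genes moved when some single arrays were left out, and became 5 with no filter. FOSL1 is also counted among the AP-1 factors above. PRRX1 (0.22 ± 0.17), YAP1 (0.06 ± 0.07), LUM (0.04 ± 0.09) and THY1 (0.03 ± 0.08) had overlapping groups. TWIST1 stood at -0.05 ± 0.07. CD44, another mesenchymal marker, was dim. Among smooth muscle and pericyte markers, 4 of 8 were tested, with list means of 6.22 to 6.28 with origamicin and 5.89 to 5.996 in mock. By sign, 2 were higher and 2 lower. RGS5 stood at -0.14 ± 0.07 and CSPG4 at -0.01 ± 0.10. The second probe set of DES stood at -0.22. TAGLN (0.63 ± 0.06) and DES (0.74 ± 0.21) were higher at an unadjusted p under 0.05 (50%, against 7.99% of all genes). These 2 became 1 with a replicate block, with probe sets averaged, and without mock replicate 2 or origamicin replicate 2. Schwann and glial, endothelial and cartilage markers had 0 genes with an unadjusted p under 0.05 of 5, 2 and 3 tested. Each of these counts became 1 without at least 1 of the arrays. The endothelial markers PECAM1, KDR, TIE1 and EMCN were dim. The part of cell type composition in the changes of TFPI2 and MGP was not tested, and in bulk RNA fewer cells of a type and less RNA per cell cannot be told apart.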

How the data were processed

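The log2 expression values per probe set were used as the authors deposited them. Per the submitters' processing notes, RMA and limma were used (no versions listed). The build and annotation were not given in the sources used. The values ran from 0.574 to 14.5 with array medians of 4.37 to 4.42 and were not normalized again. Of 53617 probe sets, 16098 name 1 gene in the platform annotation. All 16098 gene identifiers matched RefSeq, which changed no symbol. Each gene was represented by its brightest probe set on average, and the 3001 genes under the 40th percentile of probe set means were left out as dim. Arrays have no counting depth: their number limits the precision.

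Limma 3.58.1 in R 4.3.3 was run on all 4 arrays (origamicin minus mock, two-sided, Benjamini-Hochberg over 11883 genes) and checked on simulated data. SEs of single genes are moderated. The alternatives were a replicate block, other filters and normalizations, averaging probe sets of 1 gene, an intensity trend, robust eBayes and leaving out each array. The named genes were the list genes with an unadjusted p under 0.05 (at least the 2 smallest p in a list), the 5 nearest profiles and the chromosome neighbours. Others were named after their values were seen. Members, lists and motifs were chosen with earlier results of these data known.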

Additional observations from a re-analysis of the deposited data

How the results depend on the processing

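With equal array medians or quantile normalization the log2 change was 1.51 or 1.53 for TFPI2, and 0.89 under both for MGP. Leaving out 1 array gave a log2 change of 1.44 to 1.60 for TFPI2, of 0.86 to 0.96 for MGP and of 0.57 to 0.66 for their difference. With 2 arrays a group, leaving 1 out always moves a mean by the same share of the gap, so these ranges restate the gaps. With a replicate block the changes of TFPI2 and MGP were again 1.52 and 0.91, since neither a balanced block nor averaging probe sets can move them. The deviations of same-numbered arrays from their group means correlated at -0.02 across genes. With 2 arrays a group this cannot show whether the cultures were paired. With the filter at the 60th percentile (4.98), MGP, at a mean of 4.37, was itself left out. The count of genes past an adjusted p of 0.05, 0 in limma as reported, was 0 with a replicate block and under 9 other alternatives, 92 with the 60th percentile filter and 511 with an intensity trend. Leaving out 1 array moved the genes with an unadjusted p under 0.05, 1950 with all arrays, to between 1261 (without mock replicate 2; 1270 without mock replicate 1) and 1669, and the 21 list genes to between 12 and 20. The cause of these shifts was not tested beyond the fewer arrays or genes in each fit. The start level of MGP near the dim range limits what its fold can show.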

Other observations

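Genes beside TFPI2 and MGP on the chromosome gave values that belong to no comparison above. The nearest 5 protein-coding genes on each side were taken in RefSeq order. For TFPI2, on chromosome 7, 5 of the 10 neighbours were tested and 0 had an unadjusted p under 0.05 in limma, with log2 changes between -0.01 and 0.33. The largest was that of SAMD9, a gene of antiviral defence, with log2 expression values of 5.15 and 5.65 with origamicin, against 5.04 and 5.09 in mock (0.33 ± 0.18 SE). The next gene on one side, CALCR, the calcitonin receptor, was dim, at 2.87 with origamicin and 2.72 in mock. VPS50 (0.05 ± 0.07), BET1 (0.12 ± 0.08) and CASD1 (0.06 ± 0.07) lay close to no change.

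For MGP, on chromosome 12, 1 of 10 neighbours was tested, WBP11 (0.05 ± 0.09), and 5 were dim. The dim neighbours, which were not tested, changed by between -0.51 (C12orf60) and 0.59 (ARHGDIB). ARHGDIB had log2 expression values of 4.27 and 3.92 with origamicin, against 3.66 and 3.37 in mock. ERP27, which encodes an endoplasmic reticulum protein related to protein disulfide isomerase, is the next gene on one side. Its log2 expression values were 2.75 and 2.89 with origamicin, against 2.77 and 2.59 in mock, below the filter at 3.82.

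Of the DNA methylation machinery, 12 genes of 17 were tested. At an unadjusted p under 0.05, 0 were higher. With an intensity trend or the 60th percentile filter 2 were lower. In the main limma fit 1 was lower (8.33%, near the 8.42% of all genes). That was DNMT3B, a de novo methyltransferase, at 6.28 and 6.30 with origamicin, against 6.68 and 6.59 in mock (-0.35 ± 0.07 SE; limma adjusted p = 0.177, and 0.0749 with an intensity trend). The methyl-CpG reader ZBTB33 stood at -0.17 ± 0.07, DNMT1, the maintenance enzyme, at 0.07 ± 0.08, and its partner UHRF1 at 0.04 ± 0.07. No methylation was measured in these files.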
